A study of Mus musculus with 8 samples.

Results

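The genes described here are 46 factors that build ribosomes in the nucleolus, among them Utp20, Myc, fibrillarin (Fbl), nucleolin (Ncl) and nucleophosmin (Npm1). They were taken by symbol from the 52636 genes of a count table of mesenchymal stem/progenitor cells (MSPCs), the perivascular stromal cells of bone marrow that supply hematopoietic progenitors with CXCL12 and stem cell factor. The set was drawn up around Utp20, which the study plotted among its genes that differed between genotypes, so the difference of Utp20 between genotypes is given as a description, and the same contrast in the other 45 genes is set beside that of all genes with no reading of its own. The table holds 8 libraries, and the MSPCs of 1 C57BL/6 mouse went into each. The 4 CTR mice were Flk2-cre+ Cxcr4fl/+ and the 4 cKO mice Flk2-cre+ Cxcr4fl/fl, so both groups carried the Flk2-cre transgene and at least 1 floxed Cxcr4 allele. The transgene sits on the Y chromosome and is active in multipotent hematopoietic progenitors, so the deletion was aimed at the blood-forming cells and not at the MSPCs that were sequenced. Both groups carried a Kitl-GFP reporter allele, and cells that lacked CD45, Ter119, CD31 and CD144 and were positive for PDGFRα and GFP were sorted. The labels give an age of 6 weeks for every mouse, whereas the methods give an older range, which does not include that age, for all mice of the study.

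Ribosomes are assembled around rRNA that RNA polymerase I transcribes in the nucleolus. The growing precursor is bound by the UTP-A and UTP-B complexes and the U3 snoRNP, which together form the small-subunit processome, while other factors (among them the Pes1, Bop1 and Wdr12 complex) mature the large subunit. Small nucleolar ribonucleoproteins of the box C/D and box H/ACA classes methylate and pseudouridylate the rRNA, and Myc is a known activator of many genes of this pathway. Levels below are CPM (counts scaled to the library's total, with TMM factors), or RPKM, which is CPM per kilobase of transcript, where genes are compared with one another. In bulk libraries of this kind, fewer cells with a transcript and less of it per cell cannot be told apart.

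Total counts were between 31047344 and 38216877 per library, and no member had fewer than 25 counts in any library, so all 46 were above 0 in every library and were tested. The sorted cells carried the transcripts of MSPCs in both groups: the summed level of 10 MSPC markers, led by Cxcl12, was 53400 to 65821 CPM in CTR and 54671 to 66572 CPM in cKO. The hematopoietic markers summed to 30.8 to 91.6 CPM in CTR and 54.6 to 100 CPM in cKO. Cd3e was 0 in all libraries, whereas S100a8 averaged 12.3 CPM in CTR and 19.5 CPM in cKO. The 8 erythroid markers summed to 62.4 to 175 CPM in CTR and 134 to 255 CPM in cKO. Higher in cKO were 5 of the 6 hematopoietic markers tested and 8 of the 8 erythroid ones, with 0 passing the adjusted threshold in edgeR. The 8 endothelial markers summed to at most 15.9 CPM, with Tek at 0 and Vwf at 4.63 CPM in CTR and 3.42 CPM in cKO. The 7 osteoblast markers summed to 8375 to 12297 CPM in CTR and 9212 to 14408 CPM in cKO, nearly all of it Ibsp. Ibsp averaged 9937 CPM in CTR and 11446 CPM in cKO. Means in CTR and cKO were 387 and 329 CPM for Col1a1, 259 and 326 for Alpl, and 67.0 and 77.7 for Sp7. Dmp1 (6.39 and 7.98 CPM), Bglap (1.69 and 1.65) and Bglap2 (0.981 and 0.640) were far lower. The 14 proliferation markers summed to 124 to 199 CPM in CTR and 121 to 140 CPM in cKO. Immediate early genes, 22 transcripts induced quickly when cells are handled or stimulated, summed to 1989 to 2068 CPM in CTR and 1479 to 1776 CPM in cKO, without overlap. The part of these cells and genes in the values below was not tested.

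The members were moderately expressed in MSPCs. Their median level was 9.75 RPKM, beside 10.5 RPKM for all protein-coding genes tested, and 22 of the 46 reached 10 RPKM. Among 21896 protein-coding genes ranked by RPKM the members held ranks 1038 to 10598, and 0 of them stood among the first 1000. As CPM, 17 members had a mean under 20 and 2, Ncl and Rrp1, a mean of 100 or more.

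**Figure D1:**
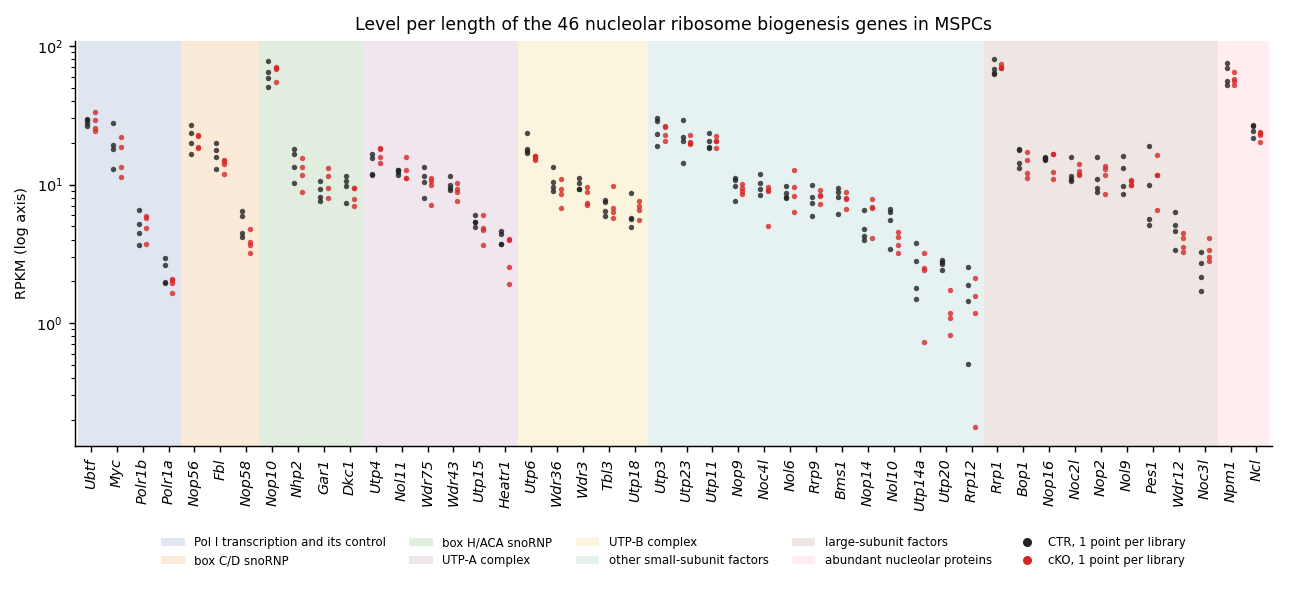
Level per transcript length (RPKM, log axis) of the 46 genes, grouped by role and ordered within a role by mean level; each point is 1 library, CTR in black and cKO in red. Rrp1, Nop10 and Npm1 stand highest and Rrp12, Utp20 and Polr1a lowest, and CTR and cKO points are separate for Utp20 and Utp6 only.

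Rrp1, Nop10 and Npm1 had the highest levels. Rrp1, a factor of large-subunit maturation, had 68.7 ± 8.13 RPKM in CTR and 70.9 ± 2.32 RPKM in cKO (SD, n = 4 each). Nop10, the smallest protein of the box H/ACA snoRNP, had 62.8 ± 11.5 RPKM in CTR and 65.8 ± 7.34 RPKM in cKO, and Npm1, a chaperone of pre-ribosomes, had 63.2 ± 11.1 RPKM in CTR and 57.6 ± 5.04 RPKM in cKO (SD, n = 4 each). These 3 genes overlapped in level and cannot be ordered beyond their spread. The order at the top also depended on how the gene was measured. With coding length in place of transcript length Nop10 reached 371 RPKM and Ncl 91.8 RPKM rather than 23.7 RPKM, and the rank correlation of the 2 scales over the 46 genes was 0.902.

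At the other end stood Rrp12, Utp20, Polr1a, Utp14a, Noc3l and Heatr1. Rrp12, a HEAT-repeat factor that accompanies the small subunit to the cytoplasm, had a mean of 1.42 RPKM and Utp20 1.94 RPKM. Polr1a had 2.15 RPKM, Utp14a 2.34 RPKM, Noc3l 2.89 RPKM and Heatr1, the large UTP-A subunit, 3.61 RPKM. Within the polymerase I group, Polr1a and Polr1b (5.01 RPKM), the large subunits that form the catalytic core, were below Myc (17.9 RPKM) and Ubtf (28.3 RPKM), which binds the rDNA promoter. In UTP-A the range ran from Heatr1 to Utp4 (15.3 RPKM; by coding length Nol11, at 18.1 RPKM, passed Utp4 at 16.6 RPKM), and in UTP-B from Utp18 (6.46 RPKM) to Utp6 (17.3 RPKM). In the box C/D snoRNP, Nop56 (21.1 RPKM) and the methyltransferase Fbl (15.3 RPKM) were above Nop58 (4.56 RPKM), but by coding length the 3 were alike, at 16.7, 18.6 and 15.9 RPKM. The pseudouridine synthase Dkc1, at 9.12 RPKM, was the lowest of the box H/ACA group. Among the other small-subunit factors Utp3 was highest at 24.7 RPKM by transcript length and Utp11 by coding length (43.2 RPKM, beside 28.5 RPKM for Utp3), and among the large-subunit factors Noc3l was lowest at 2.89 RPKM.

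The spread between mice was near that of other genes of this level. The median coefficient of variation of the members was 18.2% in CTR and 14.5% in cKO, beside 15.9% and 15.8% for all tested genes within the members' range of CPM. It was lower in cKO than in CTR for 29 of the 46 genes. Rrp12 varied most widely in cKO (65.1%) and widely in CTR (53.4%), with 6.31, 8.12, 10.99 and 2.19 CPM in CTR1 to CTR4 and 0.766, 6.76, 5.10 and 9.21 CPM in cKO1 to cKO4. Pes1, of the large-subunit PeBoW complex, varied most widely in CTR, with a coefficient of 65.0%. The steadiest were Nop16, with 2.22% in CTR, and Rrp1, with 3.28% in cKO.

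The comparison of cKO with CTR asks whether MSPCs alter their transcripts when the hematopoietic progenitors near them lack CXCR4. Utp20 lay lower in every cKO library, and no other member came near its distance. Utp20 (ENSMUSG00000004356.8, chromosome 10 of GRCm38 from 88746607 to 88826804, minus strand) encodes a large scaffold of the small-subunit processome. It had 23.4, 25.3, 21.2 and 24.4 CPM in CTR1 to CTR4 and 9.53, 15.3, 7.29 and 10.4 CPM in cKO1 to cKO4, resting on counts of 682 to 913 and of 237 to 538 respectively. The lowest CTR library stood 1.38 times above the highest cKO library, and the CTR libraries were far more alike (coefficient of variation 7.49%) than the cKO libraries (32.0%). On the log2 scale cKO differed from CTR by -1.15 (standard error 0.23), which is 2.22 times more in CTR. Between the libraries of lower title number (26 to 32) it was -0.98, and between those of higher title number (67 to 86) -1.41. These numbers stand in brackets in the sample titles, and the labels do not say what they mean.

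**Figure D2:**
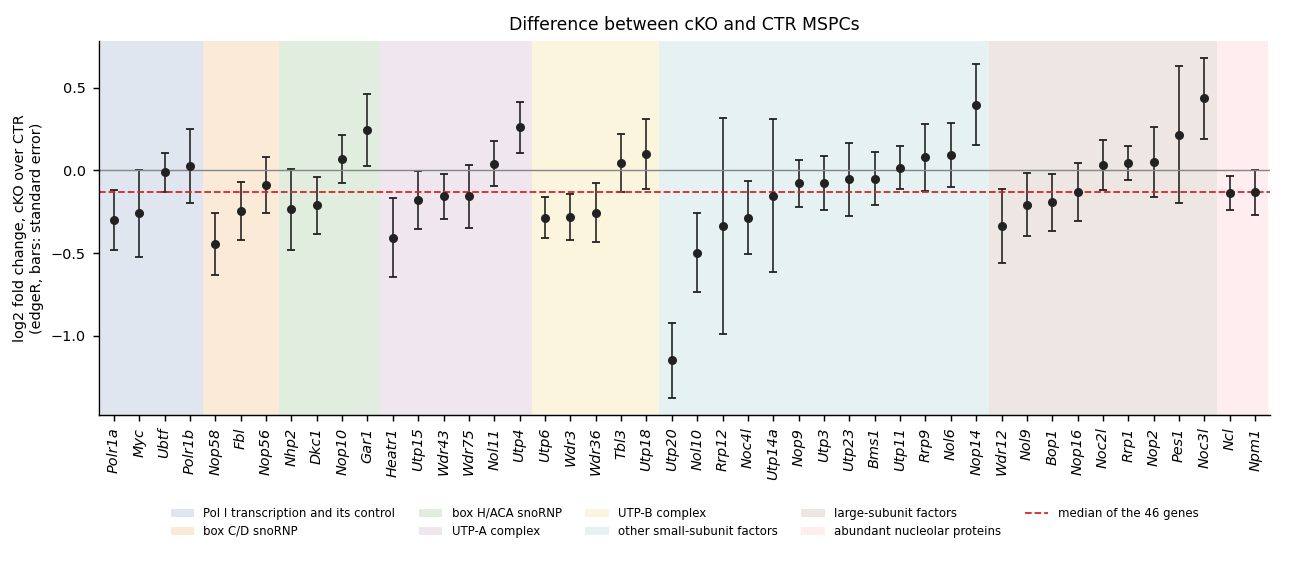
Log2 fold change of cKO over CTR for each of the 46 genes by role (points, edgeR; bars, standard error), with 0 as a grey line and the members' median of -0.13 as a dashed red line. Utp20 at -1.15 lies apart from the other 45 genes, which lie between -0.50 and 0.44.

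With edgeR's quasi-likelihood test and Benjamini-Hochberg adjustment, 0 of the 46 members passed an adjusted p of 0.05, as did 0 of the 14598 genes tested (0.0%). At an unadjusted p under 0.05 there were 3 members (Utp20, Nop58 and Utp6, all lower in cKO; 6.52%), beside 4.43% of all genes in either direction and 2.08% lower in cKO. Utp20 was chosen for this difference, and without it 2 of 45 members (4.44%) had an unadjusted p under 0.05. The cKO libraries lay entirely below the CTR libraries for 2 members (Utp20 and Utp6; 4.35%), beside 1.29% of all genes, and entirely above them for 0, beside 1.34% (2.62% in either direction). Without Utp20 this was 1 of 45 (2.22%). DESeq2's likelihood ratio test called 1 member, Utp20, among 22 genes (0.151%), as did its Wald test among 23 (0.158%) and the likelihood ratio test with a title number term among 47 (0.322%). Since Utp20 came from a likelihood ratio test of DESeq2 on the same counts, its call here adds nothing, and 0 of the other 45 members were called. Of the 46 members 30 had a log2 fold change under 0, beside 50.2% of all genes, and their median was -0.13, beside -0.00133 for all genes and 0.000949 for the 9735 genes within the members' range of CPM. Without Utp20 the median of the 45 was -0.13 and 29 were lower. The count of lower members was 26 without CTR2 and 38 without CTR4, and the median moved to -0.07 without CTR3. For 31 of the 46 genes the log2 fold change lay between -0.25 and 0.25.

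Among the genes of polymerase I transcription, the values of CTR and cKO overlapped for all 4. Myc had 32.6, 35.4, 23.5 and 50.5 CPM in CTR1 to CTR4 and 24.3, 40.1, 20.5 and 33.8 CPM in cKO1 to cKO4 (log2 fold change -0.26, standard error 0.26). Myc is also an immediate early gene, and its range within CTR exceeded the distance between the group means. Polr1a had 24.1, 27.1, 18.3 and 17.9 CPM in CTR and 15.1, 17.9, 19.2 and 18.8 CPM in cKO (-0.30, standard error 0.18), so that CTR1 and CTR2 stood above all other libraries. Polr1b, its partner, had 22.2, 17.5, 12.3 and 15.1 CPM in CTR and 19.3, 16.4, 20.05 and 12.7 CPM in cKO (0.03, standard error 0.23). Ubtf had 94.0, 95.6, 89.7 and 84.7 CPM in CTR and 94.5, 82.1, 107 and 77.8 CPM in cKO (-0.01, standard error 0.12), with both the highest and the lowest library in cKO.

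The snoRNP proteins showed small differences. All 3 box C/D proteins were lower in cKO on average, with a median log2 fold change of -0.25. Nop58 had 36.1, 33.4, 23.4 and 25.1 CPM in CTR and 26.7, 21.7, 17.8 and 20.6 CPM in cKO (-0.44, standard error 0.19, adjusted p = 0.999 in edgeR). Only cKO1 reached into the CTR range of Nop58. Fbl had 21.1, 23.9, 18.9 and 15.4 CPM in CTR and 17.7, 16.7, 14.4 and 17.997 CPM in cKO (-0.25, standard error 0.18), and CTR4 lay within the cKO range. Nop56 had 32.3, 37.1, 27.4 and 22.8 CPM in CTR and 25.2, 30.5, 25.6 and 31.1 CPM in cKO (-0.09, standard error 0.17). The lowest library of Nop56 was thus CTR4. In the box H/ACA group Nhp2 (-0.23) and Dkc1 (-0.21) were negative and Nop10 (0.07) and Gar1 (0.24) positive. Dkc1 had 20.8, 27.2, 32.2 and 29.6 CPM in CTR and 22.1, 19.8, 26.7 and 26.2 CPM in cKO, with the lowest CTR library among the lowest cKO libraries. Nop10 had 71.8, 64.7, 86.1 and 55.9 CPM in CTR and 77.1, 61.0, 75.2 and 78.7 CPM in cKO, and its cKO range lay inside the CTR range.

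The UTP-A complex is the first to bind the precursor, and UTP-B follows it. In UTP-A 4 of 6 genes were negative, and in UTP-B 3 of 5. Heatr1 had 25.1, 31.2, 30.0 and 25.3 CPM in CTR and 17.1, 27.0, 27.2 and 12.9 CPM in cKO (-0.41, standard error 0.24). In Heatr1 the cKO libraries formed a pair within the CTR range and a pair below it. Utp4, in contrast, had 36.8, 34.7, 26.0 and 26.7 CPM in CTR and 41.1, 32.1, 40.3 and 35.4 CPM in cKO (0.26, standard error 0.15). Utp15 (-0.18), Wdr43 (-0.16), Wdr75 (-0.16) and Nol11 (0.04) completed UTP-A. Of UTP-B, Utp6 had 54.0, 52.5, 73.1 and 55.9 CPM in CTR and 46.2, 48.0, 49.5 and 49.7 CPM in cKO (-0.28, standard error 0.12, adjusted p = 0.999 in edgeR). The genotypes were separate for Utp6 by a narrow gap between 49.7 and 52.5 CPM, and without CTR3, its highest library, its log2 fold change was -0.17. Wdr3 had 32.0, 38.2, 31.9 and 35.3 CPM in CTR and 25.1, 30.3, 24.6 and 33.0 CPM in cKO (-0.28, standard error 0.14), and only cKO4 entered the CTR range. Utp18 had 22.6, 14.7, 14.9 and 13.0 CPM in CTR and 18.4, 14.5, 19.9 and 17.0 CPM in cKO (0.10, standard error 0.21). CTR1 was the highest library of Utp18 and CTR4 the lowest. Wdr36 (-0.26) and Tbl3 (0.05) completed UTP-B.

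Among the 12 small-subunit factors other than Utp20, 8 were negative. Nol10 had 16.7, 19.3, 20.1 and 10.4 CPM in CTR and 12.5, 13.7, 11.1 and 9.73 CPM in cKO (-0.50, standard error 0.24), and CTR4 alone lay within the cKO range. Without CTR4 its log2 fold change was -0.67. Nop14, the largest positive value of this group, had 12.8, 17.7, 11.4 and 10.8 CPM in CTR and 18.4, 21.4, 11.1 and 18.6 CPM in cKO (0.40, standard error 0.25). Of the 4 cKO libraries 3 stood above every CTR library for Nop14, and cKO3 stood among the lowest. Utp3 had 31.0, 49.6, 46.7 and 37.6 CPM in CTR and 42.8, 33.7, 42.5 and 37.4 CPM in cKO (-0.08, standard error 0.16), all within the CTR range. Rrp12 (-0.34), Noc4l (-0.29), Utp14a (-0.15), Nop9 (-0.08), Utp23 (-0.05) and the GTPase Bms1 (-0.05) were negative, and Utp11 (0.02), the U3 protein Rrp9 (0.08) and Nol6 (0.09) positive. The standard errors of Rrp12 (0.66) and Utp14a (0.46) were the widest of the 46.

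The 9 large-subunit factors had a median log2 fold change of 0.03, with 4 negative. Noc3l, which pairs with Noc2l, had the largest positive value of all members, with 8.61, 10.7, 6.80 and 13.0 CPM in CTR and 16.3, 11.9, 13.4 and 11.2 CPM in cKO (0.44, standard error 0.24). Its libraries interleaved, and the difference was -0.03 among title numbers 26 to 32 and 0.95 among 67 to 86. Nop16 had 19.9, 19.4, 19.2 and 20.2 CPM in CTR and 15.8, 13.9, 21.2 and 21.2 CPM in cKO (-0.13, standard error 0.18). The cKO libraries of Nop16 lay on both sides of a tight CTR group. Rrp1 had 135, 127, 159 and 124 CPM in CTR and 138, 139, 139 and 148 CPM in cKO (0.05, standard error 0.10). Wdr12 (-0.34), Nol9 (-0.21), Bop1 (-0.19), Noc2l (0.03), the rRNA methyltransferase Nop2 (0.05) and Pes1 (0.22) made up the rest, so that the 3 proteins of the PeBoW complex did not share a sign. Of the abundant proteins, Ncl had 216, 222, 199 and 179 CPM in CTR and 188, 195, 192 and 167 CPM in cKO (-0.14, standard error 0.10). Npm1 had 81.4, 65.4, 88.9 and 61.2 CPM in CTR and 75.8, 67.4, 61.7 and 65.9 CPM in cKO (-0.13, standard error 0.14). Both overlapped between genotypes.

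Measured separately within the title number groups, 20 of the 46 members were lower in cKO in both groups, 4 were higher in both and 22 differed in sign. For all genes tested 27.1% were lower in both. The members' median was -0.08 within 26 to 32 and -0.17 within 67 to 86. In an edgeR model with an interaction of genotype and title number group, 0 members passed the adjusted threshold. In the same edgeR model 2 of the 46 members, Noc3l and Nol6, had an unadjusted p under 0.05 for the interaction. The share of all genes in this model is not given beside these counts, so they are not read further.

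Other genes of the pathway were read in the same contrast. Of 113 further genes in 5 lists (polymerase I and rDNA factors, snoRNP assembly, small-subunit factors, large-subunit factors, and the RNA exosome with rRNA processing), 112 were measured, and Riok2 is not analysed here. Of the 112 genes 0 passed the adjusted threshold, as did 0 of the 14598 genes tested. An unadjusted p under 0.05 in edgeR was found for 4 (3.57%), beside 4.43% of all genes. In cKO 72 (64.3%) were lower, beside 50.2% of all genes, and their median log2 fold change was -0.06, beside -0.00133. By list, lower genes numbered 6 of 12, 7 of 10, 20 of 32, 31 of 45 and 8 of 13. Cebpz, a large-subunit factor of the Noc1 family, averaged 32.3 ± 2.17 CPM over the CTR libraries, against 22.5 ± 2.83 CPM over the cKO libraries (SD, n = 4 each), with all cKO libraries lower (log2 fold change -0.52, standard error 0.13). Surf6 differed in the other direction by a like amount, with 19.0 ± 2.10 CPM in CTR, 27.2 ± 2.43 CPM in cKO and all cKO libraries higher (0.51, standard error 0.14). Nat10, the rRNA acetyltransferase (-0.60, standard error 0.26), and Pdcd11, a processome scaffold like Utp20 (-0.54, standard error 0.26), made up the 3 largest negative values with Cebpz, ahead of Taf1d (-0.51, standard error 0.39). Wdr74 (0.53, standard error 0.66) and Rrp7a (0.45, standard error 0.26) made up the 3 largest positive ones with Surf6. Their genotypes overlapped. Bud23, an rRNA methyltransferase (-0.33, standard error 0.14), also had all cKO libraries lower, as had Mrto4 (-0.36) and Rsl24d1 (-0.26). In all, the genotypes did not overlap for 5 of the 112 genes (4.46%), beside 2.62% of all genes.

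Read over all members together, the CTR libraries lay on both sides of the cKO libraries. The median deviation of the members from their own mean over 8 libraries was 0.04, 0.17, 0.18 and -0.13 (log2) in CTR1 to CTR4, and -0.04, -0.03, 0.01 and 0.00 in cKO1 to cKO4. CTR4 thus stood below all 4 cKO libraries, and CTR1, CTR2 and CTR3 above them. CTR2 or CTR3 was the highest library for 30 of the 46 genes, whereas CTR4 and cKO3 were the lowest for 11 each. CTR4 also had the lowest summed level of hematopoietic (30.8 CPM) and erythroid (62.4 CPM) markers, and CTR2 the highest of proliferation markers (199 CPM). The part of these in the members' values was not tested.

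**Figure D3:**
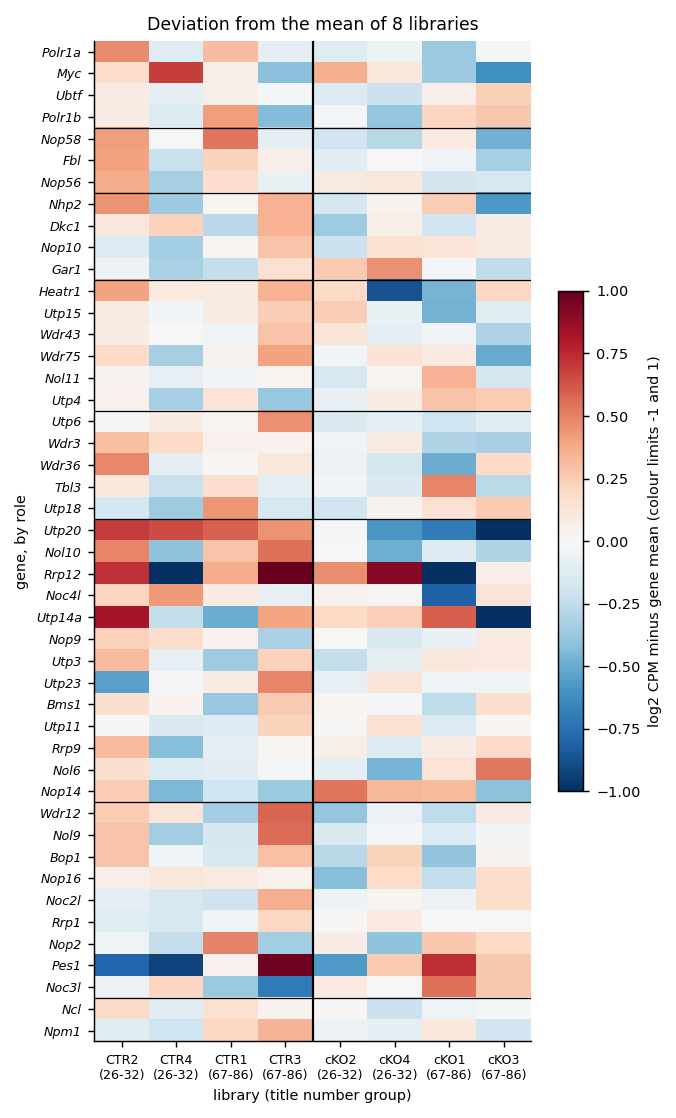
Deviation of each gene (rows, by role) from its mean log2 CPM over 8 libraries (columns, genotype and title number group); red is higher and blue lower, and values beyond -1 or 1 are drawn at the colour limits. Utp20 is red in all CTR libraries and white or blue in cKO, whereas the other rows show no common column pattern beyond the mostly red CTR2 and CTR3 and the mostly blue CTR4.

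A further question is whether the other members follow Utp20 from mouse to mouse. Across the 8 libraries, r between Utp20 and another member was from -0.66 (Utp4) to 0.83 (Wdr3), with a median of 0.19, and was positive for 27 of 45. Because Utp20 differs between genotypes, any member lower in cKO gains a positive r. Wdr3 had Pearson r = 0.827 (exact permutation p = 0.00925, adjusted over 45 members p = 0.416) and Spearman rho = 0.857 (exact permutation p = 0.0107, adjusted p = 0.482), both two-sided. Of 45 members 0 passed the adjusted threshold and 1, Wdr3, had an unadjusted exact permutation p under 0.05. An r of at least 0.7 was found for 2 members (4.44%; Wdr3 and Nop58), beside 3.17% of all genes tested. Without cKO1 and cKO3, the 2 libraries farthest from the median of Utp20, r was 0.457 for Wdr3, the median was 0.17, and 33 of 45 members had r of the same sign as before. Over these 6 libraries 4 members had r of at least 0.7, namely Ubtf (0.848), Heatr1 (0.836), Nol6 (0.815) and Nop58 (0.733), and Ubtf and Nol6 had been negative over all 8 (-0.21 and -0.31). The order of the members by r thus depended on cKO1 and cKO3, and r of Wdr3 was lower without them.

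With genotype means subtracted, which removes the difference that chose Utp20, the members centred near 0. The median r was -0.08 and 20 of 45 were positive, beside 51.7% of all genes. Myc (r = 0.769), Nop14 (0.758) and Wdr3 (0.642) had the highest values, and Nop16 (-0.714), Ubtf (-0.674) and Nop10 (-0.593) the lowest. By exact permutation within genotype, Myc had the smallest p of the 45 members (p = 0.0104, adjusted p = 0.469). No member passed the adjusted threshold in this exact permutation test. An r of at least 0.7 was found for 2 members (4.44%), beside 5.98% of all genes. With the means of both genotype and title number group subtracted, Myc had r = 0.501, Nop14 0.645 and Wdr3 0.0601. With the means of title number group alone subtracted, r was 0.889 for Wdr3. The median r between pairs of the 45 members other than Utp20 was 0.12, and 0.10 with genotype means subtracted. No value for pairs of other genes is given beside these, so they are not read further.

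**Figure D4:**
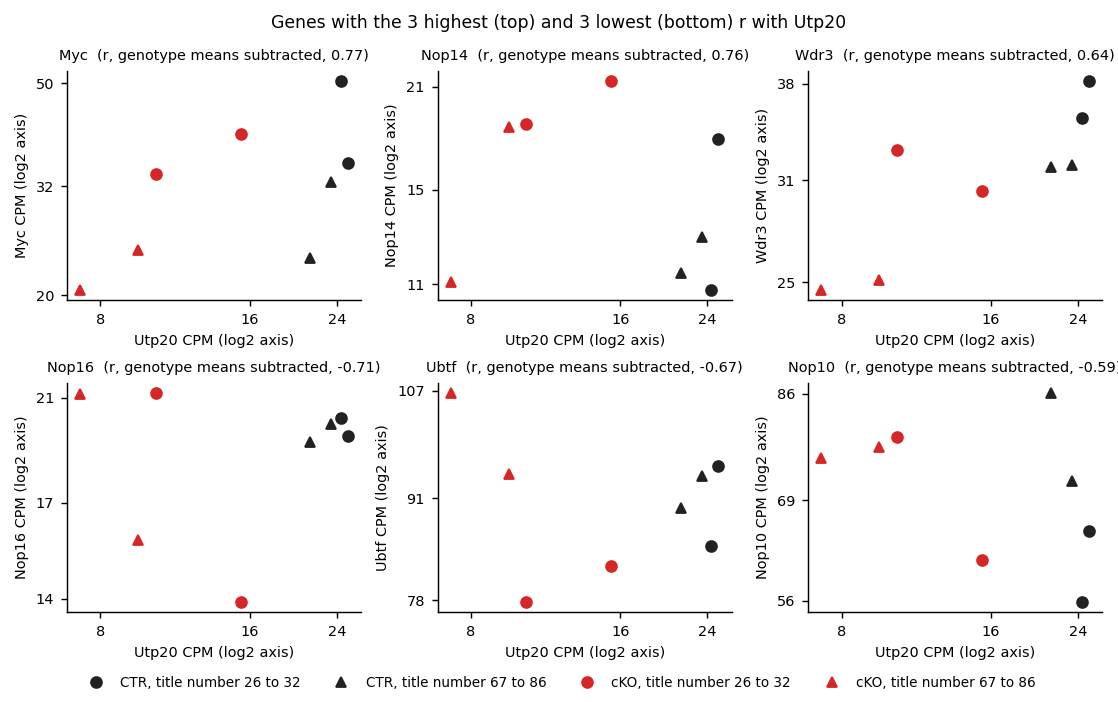
CPM of 6 genes against Utp20 CPM in each library (log2 axes; black CTR, red cKO; circles title number 26 to 32, triangles 67 to 86), with r after genotype means were subtracted. Within each genotype Myc and Wdr3 tend upward with Utp20 and Nop10 tends downward, whereas Ubtf tends downward in cKO only.

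The title number offers a comparison that took no part in the choice of the genes, with 2 libraries of each genotype in each group. In the model with genotype, 0 of the 46 members passed the adjusted threshold, beside 2 of 14598 genes (0.0137%), and 3 had an unadjusted p under 0.05 (6.52%), beside 11.6% of all genes. Myc was lower in the 67 to 86 group, where it had 20.5 to 32.6 CPM, than in the 26 to 32 group, where it had 33.8 to 50.5 CPM, without overlap (log2 fold change -0.67, standard error 0.17, adjusted p = 0.208 in edgeR). It was the only member of the 46 whose title groups did not overlap (2.17%), beside 6.87% of all genes. Pes1 had 16.3, 14.8, 19.1 and 33.9 CPM in CTR2, CTR4, cKO2 and cKO4 and 29.1, 55.4, 47.3 and 34.2 CPM in CTR1, CTR3, cKO1 and cKO3 (1.03, standard error 0.29, adjusted p = 0.2495 from edgeR). Only cKO4 reached above the lowest library of the 67 to 86 group for Pes1. Wdr3 was lower in 67 to 86 (-0.28, standard error 0.11, adjusted p = 0.383 from edgeR), with CTR above cKO in each group. DESeq2's likelihood ratio test called Myc and Pes1 among 342 genes (2.34%), and its Wald test called both among 380 (2.6%).

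**Figure D5:**
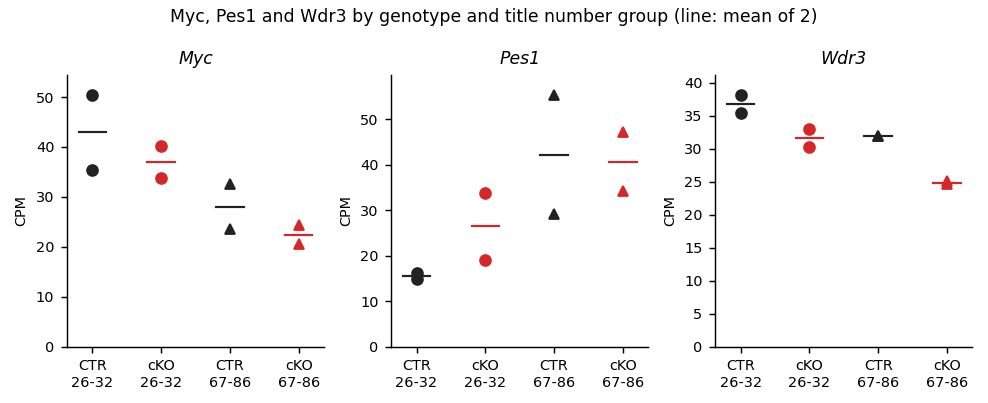
CPM of Myc, Pes1 and Wdr3 in each library by genotype and title number group (black CTR, red cKO; line, mean of 2 libraries; axes start at 0). Myc is lower and Pes1 mostly higher in 67 to 86 than in 26 to 32, and Wdr3 is lower in cKO within each group.

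The promoters of the members carry features that the choice of genes did not use. Of the 46 genes 35 had at least 1 promoter entry in RefSeq on GRCm38.p6 (44 entries in all, each 250 bases before to 50 bases after a transcript start), and both strands were searched. The E-box CACGTG, the site bound by Myc with Max, was found in 7 of the 44 (15.9%) and in 7.15% of all 32851 promoters. CCGGAAG, a site of ETS factors, was found in 13 (29.5%), beside 8.86%, and TATAAA in 3 (6.82%), beside 13.6%. Member promoters also held more G and C, with a median of 60.7% beside 52.7%. The letters CG, which both CACGTG and CCGGAAG contain, stood in them at a median of 23.5 places, beside 7 in all promoters. The part of this in the motif shares was not tested. The motifs do not overlap one another in letters, and a match is only a run of letters in the window. The E-box matches are shown because Myc and Utp20 are both members and Utp20 holds one. Each line gives the strand of the gene from its 5′ side, with the E-box in capitals:
Utp20, chr10:88826765-88826788, minus strand: ggcactaactaCACGTGaggaaaa
Utp4, chr8:106893644-106893671, plus strand: gcgcaagcgcgCACGTGgggccggggcg
Pes1, chr11:3963966-3963993, plus strand: cctaggcagggCACGTGcgggaggaagt
Utp18, chr11:93885770-93885797, minus strand: cgagcgccggtCACGTGgcttgcggcgg
Nol11, chr11:107189408-107189435, minus strand: ttgagcgttcgCACGTGgtctagactcc
Nop2, chr6:125131812-125131839, plus strand: tgtccctggatCACGTGtgttccggtgc
Wdr43, chr17:71616221-71616248, plus strand: gcccgggcgaaCACGTGgctgccgcgga

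The E-box began at base 38 after the start in Utp20, 16 in Utp4, 3 in Pes1 and 18 in Wdr43, and 20, 43 and 60 bases before it in Utp18, Nol11 and Nop2. Of these 7 genes 2 (Utp20 and Wdr43) were lower and 5 higher in cKO, and their median log2 fold change was 0.05. Of the 6 other than Utp20, Utp4, Pes1, Utp18, Nol11 and Nop2 had a negative r with Utp20 over the 8 libraries (-0.66, -0.48, -0.43, -0.14 and -0.14), and Wdr43 a positive one (0.66). Of the 12 genes with CCGGAAG, 6 were lower and 6 higher. Both motifs were thus found in genes on either side of 0.

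Several values may be affected by exons shared with other genes. For 19 of the 46 genes an annotated exon overlaps an exon of a gene on the opposite strand, by as much as 37.3% of the exonic length in Tbl3 (with Noxo1), 29.9% in Nop9 (with Cideb), 20.9% in Noc2l (with Samd11) and 15.7% in Wdr3 (with Spag17). Whether counting used strand, and how reads in shared exons were assigned, is not given in the sources used here. Such reads may have been left out or counted with either gene, which was not tested. Utp20, Nop58, Utp6 and Myc have no such overlap. Small nucleolar RNAs are annotated within exons of Nop56, Nop58 and Ncl. Copies of the members elsewhere in the genome, such as those of Npm1 and Utp14a, were not examined, and counts are uncertain to that extent.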

How the data were processed

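RNA-seq was made from poly(A)-selected RNA of MSPCs of 4 CTR and 4 cKO mice, 1 mouse per library. The authors trimmed reads, aligned them to GRCm38 (mm10) with HISAT2 and deposited raw counts per gene from HTSeq-count. They tested with DESeq2's likelihood ratio test and a batch term, and no label names that batch. Genes above 0 in every library were tested here with edgeR 4.0.16 in R 4.3.3 (quasi-likelihood test, TMM scaling, no covariate, Benjamini-Hochberg threshold 0.05), and the code was tested on simulated data. DESeq2 1.42.0, other filters and scalings, a title number term, a replicate block and leaving out each library were alternatives. CPM used TMM scaling, and RPKM the median length of protein-coding transcripts. Correlations used log2 CPM with a prior count of 2. Permutation tests were exact and two-sided, and 4 against 4 cannot give a p below 0.0286.

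The members and lists were chosen with earlier results of these data known. Named with values in every library were Utp20, Myc, Ubtf, Polr1a, Polr1b, Fbl, Ncl and Npm1, the highest and lowest RPKM of each role, the 3 largest differences in each direction, members with an unadjusted p under 0.05 between genotypes or an adjusted p under 0.05 between title number groups, and the 3 highest and 3 lowest r with Utp20 after genotype means were subtracted. Of other pathway genes, the 3 largest in each direction were named. Pes1, Nol6, Noc4l, Utp14a, Bud23, Mrto4, Rsl24d1, Taf1d and the genes with an E-box were named after their values were seen, as were the members listed by log2 fold change alone. Protein features were not run.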

Additional observations from a re-analysis of the deposited data

Results flagged for a closer look

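Of 92 sets of 4 libraries tested (46 genes in CTR and in cKO), 2 held a library far from the other 3 by Dixon's ratio at its 95% critical value, and chance gives about 1 in 20. For Noc4l in cKO the ratio was 0.876: cKO1 had 10.5 CPM and the other libraries 18.5 to 20.05 CPM. For Rrp1 in cKO it was 0.875: cKO4 had 148 CPM and the other libraries 138 to 139 CPM.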

How the results depend on the processing

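Genes called between genotypes numbered 0 with edgeR as reported, 1 with filterByExpr and 1 with no filter, and with DESeq2 22 (likelihood ratio test), 23 (Wald test) and 47 (likelihood ratio test with a title number term). DESeq2 called 1 member, Utp20, in all 3. Between title number groups 2 genes were called, against 1 with DESeq2's size factors in edgeR, 4 with no filter, 0 with no genotype term, 342 and 380 with DESeq2's likelihood ratio and Wald tests (2 members each, Myc and Pes1), and 0 to 4 without 1 library. Without 1 library the members' median log2 fold change was -0.15 (without CTR4) to -0.07 (without CTR3), 26 to 38 members were lower in cKO, and 0 to 1 members correlated with Utp20 past the threshold (Wdr3, without cKO4). Only cKO4 entered the CTR range of Wdr3, so without it this r includes a full separation of the genotypes. With genotype means subtracted, Wdr3 had r = 0.642 over the 8 libraries (exact permutation within genotype, p = 0.208, adjusted p = 0.654). Of 456 values of 24 named members, 441 kept direction and side of the threshold, 3 passed it (Utp20 with DESeq2) and 12 changed sign, each on leaving out 1 library: Ubtf ranged from -0.102 to 0.0526, Polr1b from -0.10 to 0.19, Nop10 from -0.0259 to 0.182, Nop56 from -0.200 to 0.0277, Utp3 from -0.191 to 0.0190 and Rrp12 from -0.712 to 0.0242. The cause was not tested.

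With the replicate number as a block, 0 members were called in edgeR, and their median log2 fold change was -0.13. Deviations of same-numbered libraries correlated by 0.131, 0.176, 0.0844 and 0.0572. No value for differently numbered libraries is given beside these, so a pairing is neither shown nor excluded. Libraries of the same replicate number also share a title number group. In counts simulated from these libraries, edgeR called 0 of 197 genes changed by a log2 of 0.5 and 90 of 193 (46.6%) changed by 1. With 4 mice a group and 0 genes called by edgeR, differences of these sizes can thus have been missed. The fewest counts lay behind Rrp12, with 25 in its lowest library.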
